A study of Homo sapiens with 3 samples.

Results

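The human mitochondrial genome carries 37 genes in GENCODE 29, and they were followed here as the set of all genes on that chromosome whose symbol starts with MT-. They comprise 13 mRNAs, 2 rRNAs and 22 tRNAs, out of 52992 genes to which the deposited transcripts could be joined. The RNA was taken from lysed J82 cells, a long-established line from a human bladder cancer, and was recovered in a pull-down with 1 of 3 proteins. These were glutathione S-transferase (GST) fused to an Ala mutant of ZFP36L1, GST fused to wild-type ZFP36L1, and GST alone as the control, with 1 library each. All 3 libraries share the cell line and the GST moiety, and the residues replaced in the mutant are not named in the labels. With no replicate, no difference below could be set against a spread between libraries and no p-value is given. Intervals are 95% Clopper-Pearson intervals and cover counting error only.

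ZFP36L1 acts mainly in the cytoplasm, where its paired zinc fingers bind AU-rich stretches of mRNA built around UAUUUAU and the bound message is marked for decay. The mitochondrial genome is transcribed from each strand into long precursors that are cut apart mainly at the tRNAs, inside the organelle and away from the cytosol. Its mRNAs encode subunits of respiratory complexes I, III, IV and V, have little or no untranslated sequence, and mostly carry a short poly(A) tail that MT-ND6 lacks. How far lysis of the cells opened mitochondria was not measured here.

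UAUUUAU (written TATTTAT as DNA) was searched for on the sense strand of each mitochondrial mRNA and rRNA. It occurred once in each of 5 of the 13 mRNAs and in neither rRNA. Each site is shown with up to 10 bases on either side, as DNA, 5′ to 3′, from the GENCODE 29 transcripts (GRCh38). Capitals mark the site, and these 5 sequences are shown because they are the only matches to the core site of ZFP36L1 among the 15 transcripts searched.
MT-ND1, chrM:3604-3630, plus strand: ctaggcctccTATTTATtctagccacc
MT-ND2, chrM:5077-5103, plus strand: ttaatttaacTATTTATattatcctaa
MT-CO3, chrM:9450-9476, plus strand: gggataatccTATTTATtacctcagaa
MT-ND5, chrM:13342-13368, plus strand: aaagccatacTATTTATgtgctccggg
MT-ND6, chrM:14583-14609, minus strand: agccttctccTATTTATgggggtttag
Among windows of the same length tiled over 1 nuclear coding sequence per gene, the share that held TATTTAT was 4.05% at the length of MT-ND1, 4.35% at that of MT-ND2 and 3.40% at that of MT-CO3. It was 7.50% at the length of MT-ND5 and 2.23% at that of MT-ND6. At the lengths of the 8 mRNAs without the site, the share ran from 0.876% (MT-ATP8) to 6.31% (MT-CO1). Windows were matched on length and not on base composition, so these shares do not show whether the site is enriched. The shorter ATTTA occurred in 10 of the 13 mRNAs and in both rRNAs. It was missing from MT-ND3, MT-CYB and MT-ATP8, at whose lengths 18.2%, 43.5% and 11.6% of nuclear coding windows held it. A match is a run of letters only, and binding there was not measured.

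MT-ND3, whose ratio in wild-type ZFP36L1 over GST was the highest of the 13 mRNAs, held neither TATTTAT nor ATTTA, which TATTTAT contains. Its most AU-rich window of 30 bases is shown beside those of MT-ND2, second in that ratio, and of MT-CO2, the lowest. Capitals mark the longest run of A and T in each window.
MT-ND3, chrM:10101-10130, plus strand: ttactacTAATAATTATTAcattttgacta
MT-ND2, chrM:5067-5096, plus strand: ataaccattcttaatttaacTATTTATATT
MT-CO2, chrM:8217-8246, plus strand: tagAATTAATTcccctaaaaatctttgaaa
These windows held 25, 26 and 23 A or U bases of 30 for MT-ND3, MT-ND2 and MT-CO2. The count did not follow the ratio over the other mRNAs. MT-ND1 and MT-CO3, with the third and the fourth highest ratios, held 23 in their windows, the same number as MT-CO2, and so did MT-CYB and MT-ND5. MT-ND6, MT-ATP8, MT-ND4L and MT-CO1 held 25 or 26, and MT-ATP6 and MT-ND4 held 24.

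The libraries totalled 19153483 estimated counts for the Ala mutant, 19845386 for wild-type ZFP36L1 and 19137867 for GST. Of 15 urothelial and epithelial markers, 6 had at least 10 counts with the Ala mutant, 6 with wild-type ZFP36L1 and 6 with GST. Their summed level was 1093 TPM with the Ala mutant, 137 TPM with wild-type ZFP36L1 and 724 TPM with GST, mostly from the simple-epithelial keratins KRT7, KRT8 and KRT18 or, with wild-type ZFP36L1, from PPARG. KRT5, KRT19, KRT20 and UPK3A (a uroplakin of the urothelium) had 0 counts in all 3 libraries. Of 7 mesenchymal markers, 5 had at least 10 counts with each protein, and their summed level was 645 TPM with the Ala mutant, 98.7 TPM with wild-type ZFP36L1 and 1012 TPM with GST. Most of it was the intermediate filament gene VIM, with 635 TPM with the Ala mutant, 67.5 TPM with wild-type ZFP36L1 and 998 TPM with GST. With GST the mesenchymal sum was thus above the epithelial one. Summed leukocyte, erythroid and hepatocyte markers stayed between 0.123 and 1.97 TPM in each library. The name of the GST table carries another run code than those of the other 2 libraries, so a run difference and GST cannot be told apart.

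The mitochondrial mRNAs together took the largest share of the wild-type library and the smallest share of the mutant one. They held 5.66% (5.65 to 5.67) of all estimated counts with the Ala mutant, 13.9% (13.9 to 14.0) with wild-type ZFP36L1 and 8.07% (8.06 to 8.08) with GST. The 2 rRNAs took their smallest share of the wild-type library, at 1.56% with the Ala mutant, 0.932% with wild-type ZFP36L1 and 2.10% with GST. The mRNAs therefore outnumbered the rRNAs in estimated counts 3.63-fold with the Ala mutant, 15.0-fold with wild-type ZFP36L1 and 3.84-fold with GST. The Ala mutant and GST libraries lay close to each other in this ratio, and the wild-type library stood apart. Per effective length the distance was wider: in the deposited TPM the mRNAs summed to 61126 with the Ala mutant, 245424 with wild-type ZFP36L1 and 100493 with GST, and exceeded the rRNAs 6.80-fold, 39.6-fold and 7.95-fold in the same order of libraries. Of the wild-type sum, MT-ND3 alone held 102855 TPM, at an effective length of only 167 bases. Shares are of each library, so the amount of mitochondrial RNA recovered by each protein cannot be read from them.

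**Figure D1:**
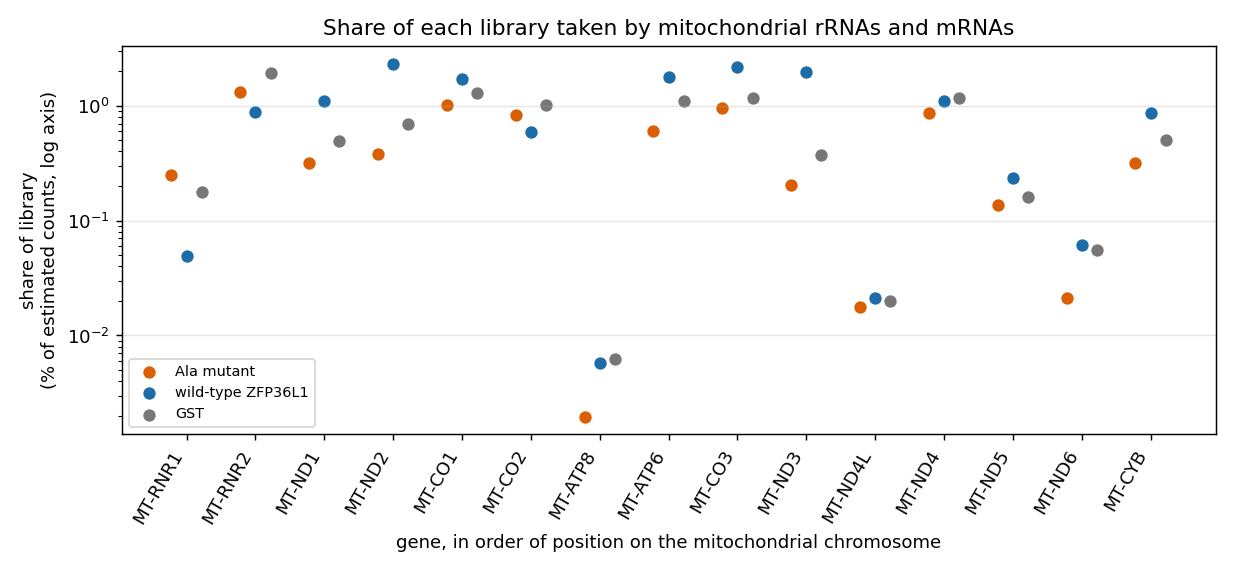
Share of each library (percent of all estimated counts, log axis) for the 2 mitochondrial rRNAs and 13 mRNAs in order of position, with 1 point per library. MT-ND3 stood at 0.206% with the Ala mutant, 1.95% with wild-type ZFP36L1 and 0.371% with GST, whereas MT-CO2 and both rRNAs were lowest with wild-type ZFP36L1.

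No tRNA of the 22 was measured. Each has a row in the 3 tables, and each row holds 0 estimated counts. The tRNAs are 59 to 75 bases long, and none of the 8512 transcripts under 150 bases in the tables had a count in any library. The shortest transcript with a count was 163 bases long, so the zeros set no limit on how much of these tRNAs was recovered. Of the 22, 14 are encoded on the plus strand and 8 on the minus strand (MT-TQ, MT-TA, MT-TN, MT-TC, MT-TY, MT-TS1, MT-TE and MT-TP).

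Wild-type ZFP36L1 was set against GST to ask which RNAs exceeded the background of the tag. Of the 13 mRNAs, 3 were at least 2-fold higher with an interval that excluded a ratio of 1, and 0 were lower. Over all 14082 genes with a mean of at least 10 counts, 25.5% were higher and 34.2% were lower by the same rule. The share of the mRNAs that were higher, 23.1%, was thus near that of all genes. The 3 were MT-ND3, MT-ND2 and MT-ND1, all of which encode membrane subunits of complex I (NADH dehydrogenase). Complex I accounts for 7 of the 13 mRNAs. The median log2 ratio of the 13 mRNAs was 0.51, against -0.03 over all genes, and their values ran from -0.82 to 2.36. Ratios are of counts scaled by trimmed mean of M values (TMM).

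MT-ND3 had 387155 estimated counts with wild-type ZFP36L1 and 71080 with GST. The ratio was 5.15-fold in favour of wild-type ZFP36L1 (log2 2.36, 2.35 to 2.37). It was the gene with the 4th most counts in the wild-type library, against the 24th in the GST library. MT-ND2 had 462401 counts with wild-type ZFP36L1 and 132240 with GST, and was 3.30-fold higher (log2 1.72, 1.72 to 1.73). MT-ND1 had 219444 counts with wild-type ZFP36L1 and 94187 with GST, and was 2.20-fold higher (log2 1.14, 1.13 to 1.15). The other complex I mRNAs of the mitochondrial genome stayed under 2-fold. MT-ND5 stood at log2 0.51, MT-ND6 at 0.11, MT-ND4L at 0.06 and MT-ND4 at -0.14, and MT-ND4 was above 0 (0.07) only when the deposited TPM were used.

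MT-CYB, the cytochrome b of complex III, had 173065 counts with wild-type ZFP36L1 and 96599 with GST, a log2 ratio of 0.76. The subunits of complex IV (cytochrome c oxidase) were spread to both sides of 0. MT-CO3 had 433487 counts with wild-type ZFP36L1 and 224969 with GST (log2 0.86), and it passed 2-fold only with the deposited TPM (log2 1.07). MT-CO1, the catalytic subunit, had 342245 counts with wild-type ZFP36L1 and 246856 with GST (log2 0.39). MT-CO2, which takes up electrons from cytochrome c, had the lowest ratio of the 13, with 116521 counts with wild-type ZFP36L1 and 193922 with GST (log2 -0.82, -0.83 to -0.81). Of the ATP synthase mRNAs, MT-ATP6 had 351797 counts with wild-type ZFP36L1 and 213234 with GST (log2 0.64). MT-ATP8 had 1150 with wild-type ZFP36L1 and 1192 with GST (log2 -0.13, -0.25 to -0.02, and 0.07 with the deposited TPM).

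Both rRNAs were at least 2-fold lower with wild-type ZFP36L1 than with GST, as were 34.2% of all genes. MT-RNR1, the 12S rRNA of the small ribosomal subunit, had 9813 counts with wild-type ZFP36L1 and 34028 with GST, a log2 ratio of -1.88 (-1.91 to -1.84). MT-RNR2, the 16S rRNA of the large subunit, had 175129 counts with wild-type ZFP36L1 and 367964 with GST, a log2 ratio of -1.15 (-1.16 to -1.15), or -0.95 with the deposited TPM. How far rRNA was removed or poly(A) RNA was selected is not given in the labels. The rRNA levels therefore describe the sequenced libraries only.

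**Figure D2:**
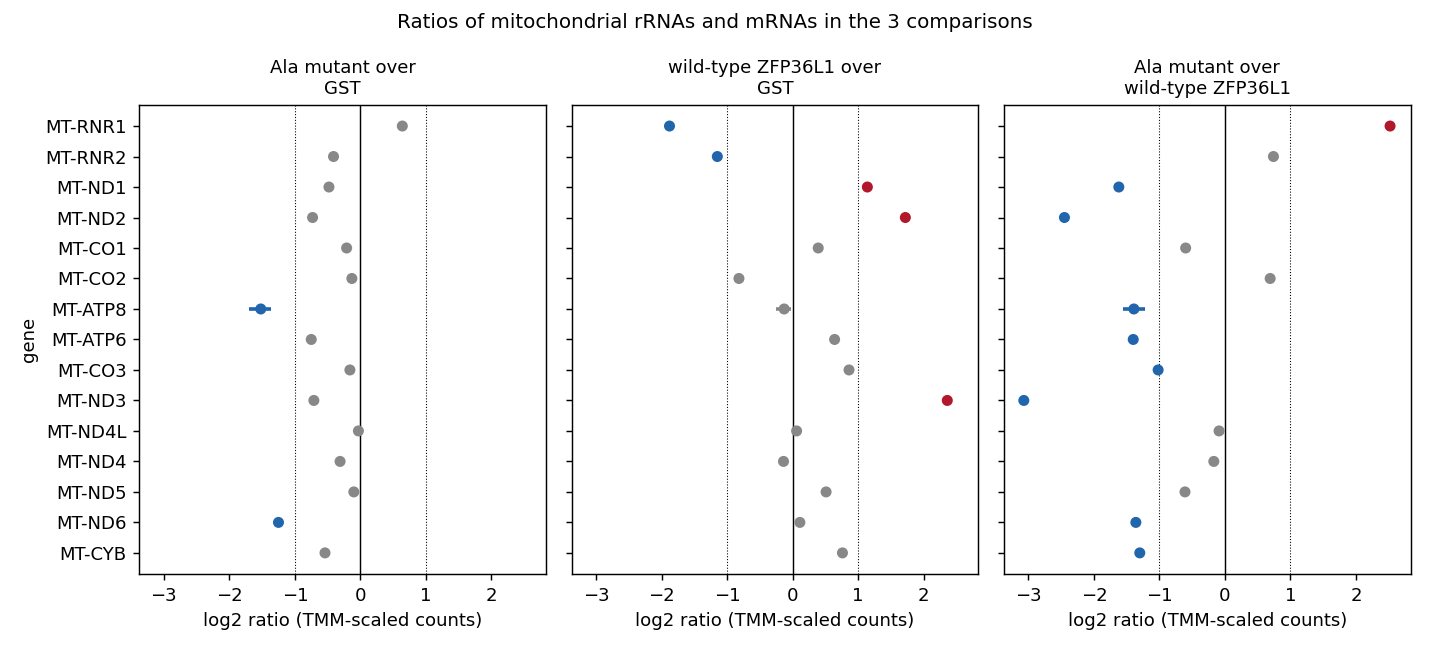
Log2 ratio of TMM-scaled counts for each measured mitochondrial gene in the 3 comparisons, with horizontal bars for 95% counting intervals (mostly narrower than the point). Red marks genes at least 2-fold higher, blue at least 2-fold lower, grey neither, with dotted lines at 2-fold; in wild-type ZFP36L1 over GST, MT-ND3, MT-ND2 and MT-ND1 are red and both rRNAs blue.

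The Ala mutant was compared with GST to see whether the mutated protein recovered a share of mitochondrial RNA above background. All 13 mRNAs had log2 ratios under 0, from -1.52 to -0.03, with a median of -0.48 against 0.04 over all genes. By the 2-fold rule, 2 of the 13 were lower and 0 were higher, while 5.13% of all genes were lower and 9.00% higher. The share of higher genes among all called was 63.7% here, 47.5% when libraries were scaled to total counts and 41.9% with totals of genes that are not mitochondrial. The median over all genes shifted by -0.14 and -0.18 under these scalings, and by -0.21 with the deposited TPM. Relative to the median of all genes, that of the 13 mRNAs stayed between -0.61 and -0.50 over the settings tried.

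MT-ATP8 had 376 counts with the Ala mutant and 1192 with GST (log2 -1.52, -1.70 to -1.36). It is the shortest of the mRNAs, with an effective length of 31.4 bases, and 46 of its 207 bases also lie in MT-ATP6 on the same strand. The 2 reading frames share an mRNA, and MT-ATP6, with 114625 counts with the Ala mutant and 213234 with GST, was not called. MT-ND6 had 4038 counts with the Ala mutant and 10589 with GST (log2 -1.25, -1.30 to -1.20). Next came MT-ATP6 at log2 -0.75, MT-ND2 at -0.73 and MT-ND3 at -0.71, all under 2-fold, although MT-ATP6 (-1.04) and MT-ND2 (-1.01) passed it with the deposited TPM. MT-ND4L was nearest to the control, with 3374 counts with the Ala mutant and 3808 with GST (log2 -0.03, -0.10 to 0.03).

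In the Ala mutant over GST the rRNAs lay on either side of 0. MT-RNR1 had 48090 counts with the Ala mutant and 34028 with GST (log2 0.64, 0.62 to 0.66), and MT-RNR2 had 250558 with the Ala mutant and 367964 with GST (log2 -0.41, -0.42 to -0.41). Neither reached 2-fold. Per effective length, MT-RNR2 stood at 6696 TPM and MT-RNR1 at 2288 TPM with the Ala mutant. With wild-type ZFP36L1 these levels were 5630 TPM and 562 TPM, and with GST 10850 TPM and 1787 TPM. The balance of the 2 rRNAs thus differed among all 3 libraries.

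The direct comparison of the proteins asked what the Ala substitution altered, and it shares each library with one of the comparisons above. Of the 13 mRNAs, 8 were at least 2-fold lower with the Ala mutant than with wild-type ZFP36L1 and 0 were higher. Over all genes 30.1% were lower and 36.0% were higher. The 8 were MT-ND3, MT-ND2, MT-ND1, MT-ATP6, MT-ATP8, MT-ND6, MT-CYB and MT-CO3. MT-ATP6 and MT-ATP8 lie on the same mRNA, so the 8 are not all separate molecules. MT-ND3 had 39398 counts with the Ala mutant and 387155 with wild-type ZFP36L1. It was 8.42-fold lower with the Ala mutant (log2 -3.07, -3.09 to -3.06), and MT-ND2, with 72517 counts with the Ala mutant and 462401 with wild-type ZFP36L1, was 5.46-fold lower (log2 -2.45, -2.46 to -2.44). MT-CO3 stood at the threshold (log2 -1.02) and missed it with a minimum mean count of 100 (-0.99) and with protein-coding genes only (-0.96).

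Of the 5 mRNAs under 2-fold, MT-CO2 was the one with a ratio above 0. It had 160599 counts with the Ala mutant and 116521 with wild-type ZFP36L1 (log2 0.69, 0.67 to 0.70), and the value lay between 0.20 and 0.75 over the settings. MT-ND4 (log2 -0.17), MT-ND4L (-0.09), MT-CO1 (-0.60) and MT-ND5 (-0.61) were the others. MT-RNR1 was 5.72-fold higher with the Ala mutant than with wild-type ZFP36L1 (log2 2.52, 2.48 to 2.55), and MT-RNR2 stood at log2 0.74. The median of the 13 mRNAs was -1.30 against 0.04 over all genes, and it lay -1.54 to -1.14 relative to the median of all genes over the settings. The median of all genes itself moved by -0.29 both with totals of genes that are not mitochondrial and with the deposited TPM.

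Within the summed counts of the 13 mRNAs, which needs no scaling between libraries, the wild-type library had another composition. MT-ND3 made up 3.64% with the Ala mutant, 14.0% with wild-type ZFP36L1 and 4.60% with GST. MT-ND2 made up 6.69% with the Ala mutant, 16.7% with wild-type ZFP36L1 and 8.56% with GST. MT-CO2 made up 14.8% with the Ala mutant, 4.21% with wild-type ZFP36L1 and 12.6% with GST. MT-CYB, by contrast, held 5.56% with the Ala mutant, 6.26% with wild-type ZFP36L1 and 6.25% with GST. The spread between the mRNA whose share gained most and the one whose share lost most was 2.81-fold for the Ala mutant over GST, 9.06-fold for wild-type ZFP36L1 over GST and 13.5-fold for the Ala mutant over wild-type ZFP36L1.

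**Figure D3:**
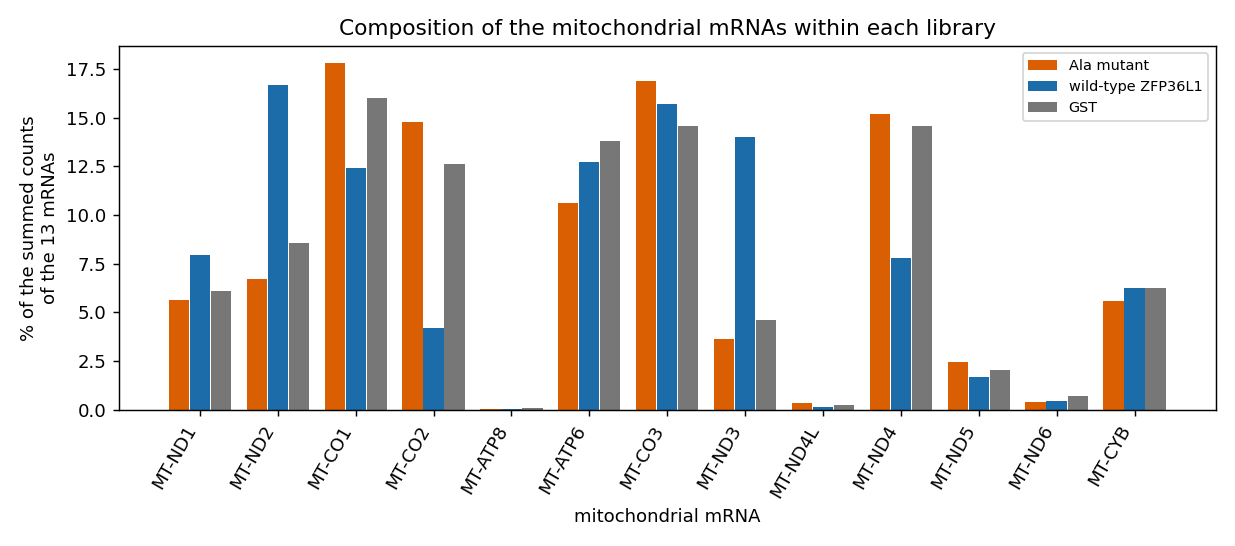
Percent of the summed estimated counts of the 13 mitochondrial mRNAs that each mRNA held, with 1 bar per library and no error bar because there is 1 library per protein. MT-ND2 and MT-ND3 have their tallest bar with wild-type ZFP36L1 (16.7% and 14.0%), and MT-CO2 and MT-ND4 their shortest (4.21% and 7.81%).

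Levels per effective length, as the deposited TPM, ordered the mRNAs differently in the 3 libraries. In the Ala mutant library MT-CO2 led with 11728 TPM, followed by MT-CO3 with 11155, MT-ND3 with 8700 and MT-ATP6 with 8420. With wild-type ZFP36L1, MT-ND3 led with 102855 TPM and was the highest gene of the library on that scale, followed by MT-CO3 with 31789, MT-ATP6 with 31092 and MT-ND2 with 23772. MT-ND3 held 41.9% of the summed TPM of the 13 mRNAs there, against 14.0% of their counts. Its effective length is 167 of 346 bases, so its TPM depends on the fragment length assumed. With GST, MT-ND3 (17320 TPM), MT-ATP6 (17284), MT-CO2 (15626) and MT-CO3 (15131) lay close together. MT-ND5 was last of the 13 with wild-type ZFP36L1 (1272 TPM) and with GST (772 TPM), and MT-ND6 was last with the Ala mutant (430 TPM). Without replicates, no neighbours in these orders can be called different.

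A pair of mRNAs each carry 2 overlapping reading frames, so their parts come from the same molecules. MT-ATP6 exceeded MT-ATP8 by 19.1-fold in TPM with the Ala mutant, 19.1-fold with wild-type ZFP36L1 and 11.2-fold with GST. MT-ND4 exceeded MT-ND4L by 4.80-fold with the Ala mutant, 5.07-fold with wild-type ZFP36L1 and 5.81-fold with GST. MT-ATP8 and MT-ND4L have effective lengths of 31.4 and 118 bases in the tables, and the counts of such short transcripts depend on the fragment length assumed.

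MT-ND6 is the only one of the 13 mRNAs on the minus strand, and its G and C content is skewed the other way. It holds 35.6% G and 7.05% C, whereas MT-ND5 beside it holds 10.6% G and 34.3% C. It took 0.0211% of the library with the Ala mutant, 0.0610% with wild-type ZFP36L1 and 0.0553% with GST. It supplied 0.292% of all mitochondrial counts with the Ala mutant, 0.410% with wild-type ZFP36L1 and 0.544% with GST. Whether reads were counted by strand is not given in the sources used here, so counts of MT-ND6 and of RNA antisense to it cannot be told apart.

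In wild-type ZFP36L1 over GST, the 5 mRNAs with TATTTAT had log2 ratios between 0.11 and 1.72, with a median of 0.86. The 8 without it ranged from -0.82 to 2.36, with a median of 0.23, so the groups overlapped, with MT-ND3 on top. For the Ala mutant over GST the medians were -0.48 with the site and -0.43 without. For the Ala mutant over wild-type ZFP36L1 they were -1.36 with the site and -0.95 without. With the shorter ATTTA the order turned round. For wild-type ZFP36L1 over GST the median was 0.45 over the 10 mRNAs with ATTTA and 0.76 over the 3 without. It was -0.26 with ATTTA and -0.71 without for the Ala mutant over GST, and -0.81 with ATTTA and -1.39 without for the Ala mutant over wild-type ZFP36L1. Members were not chosen for either motif, and the differences were not tested.

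Other properties of the 13 mRNAs are set beside the ratios here as a description across genes of the same libraries. For wild-type ZFP36L1 over GST, Spearman's rho across the 13 was 0.12 with GC content, 0.23 with U content, 0.11 with length and -0.18 with position along the chromosome. For the Ala mutant over GST, rho was 0.54 with GC content (Pearson's r 0.65), -0.01 with U content, 0.37 with length and 0.07 with position. Across all 13, rho was -0.28 with A content (r -0.20) and 0.37 with G content (r -0.20). Without MT-ND6, whose base composition stands apart, rho with GC content was 0.43. Over those 12 mRNAs rho was -0.54 with A content (Pearson's r -0.84) and 0.66 with G content (r 0.76). MT-ATP8, with only 376 counts with the Ala mutant, had both the highest A content (38.6%) and the lowest log2 ratio (-1.52). How far these values of r depend on MT-ATP8 was not tested. Short mRNAs did not share a ratio in wild-type ZFP36L1 over GST. MT-ND3 (346 bases) stood at log2 2.36, MT-ND4L (297 bases) at 0.06 and MT-ATP8 (207 bases) at -0.13.

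Near-identical copies in the nuclear genome could take up reads of the mitochondrial genes. The 398 annotated copies in the tables held 78396 counts with the Ala mutant, 153975 with wild-type ZFP36L1 and 112584 with GST. That is 5.67%, 5.22% and 5.78% of the mitochondrial counts for the Ala mutant, wild-type ZFP36L1 and GST. Copies of MT-ND1 held the most relative to their gene, 20.4% of its counts with the Ala mutant, 22.8% with wild-type ZFP36L1 and 28.0% with GST. For MT-ND3 they held 0, and 3.48% of its stretches of 31 bases occur in transcripts of nuclear genes, against 66.7% for MT-CO1. MTCO2P12, the main copy of MT-CO2 (chromosome 1), had 12054 counts with the Ala mutant, 13025 with wild-type ZFP36L1 and 11680 with GST, and for wild-type ZFP36L1 over GST MT-CO2 had a log2 ratio of -0.82 and this copy one of 0.08. With the copies added to their genes, 2 mRNAs were lower for the Ala mutant over GST, 3 were higher for wild-type ZFP36L1 over GST and 7 were lower for the Ala mutant over wild-type ZFP36L1. MT-CO3, then just short of 2-fold, was the one no longer counted.

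The nuclear genome encodes the other subunits of the same complexes. For wild-type ZFP36L1 over GST, 48 of 79 nuclear-encoded genes (60.8%) were lower and 8 (10.1%) were higher, against 34.2% lower and 25.5% higher over all genes. Their median log2 ratio was -1.61. In complex I the median was 0.51 over the 7 mitochondrial mRNAs and -2.10 over the 37 nuclear ones. In complex III the single mitochondrial mRNA stood at 0.76, against a median of -1.61 over 9 nuclear ones. The medians were 0.39 over 3 mitochondrial and -2.03 over 11 nuclear mRNAs in complex IV, and 0.25 over 2 mitochondrial and -1.79 over 18 nuclear mRNAs in complex V. NDUFB4 of complex I had 20158 counts with wild-type ZFP36L1 and 8703 with GST (log2 1.13), whereas NDUFS5 had 460 with wild-type ZFP36L1 and 7951 with GST (log2 -4.19). The 4 genes of complex II, all nuclear, had a median of 0.78, and SDHB, its iron-sulfur subunit, stood at log2 1.91. The ranges of the mitochondrial and the nuclear members overlapped in complexes I, IV and V, and the differences were not tested.

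In the Ala mutant over GST the median was -0.48 over the 13 mitochondrial mRNAs, all of which lay under 0, and 0.40 over the 79 nuclear ones, of which 60 lay above 0 and 19 below. By the 2-fold rule 11 of the 79 (13.9%) were higher and 1 (1.27%) was lower, against 9.00% and 5.13% of all genes. NDUFA11 had 5322 counts with the Ala mutant and 1340 with GST (log2 2.13), and SDHD, a membrane anchor of complex II, had 1735 with the Ala mutant and 4131 with GST (log2 -1.11). In the Ala mutant over wild-type ZFP36L1, the medians were -1.30 over the mitochondrial mRNAs and 2.0 over the nuclear ones, of which 51 (64.6%) were higher and 6 (7.59%) lower, against 36.0% and 30.1% of all genes. UQCRC1, a core subunit of complex III, had 6767 counts with the Ala mutant and 270 with wild-type ZFP36L1 (log2 4.87).

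**Figure D4:**
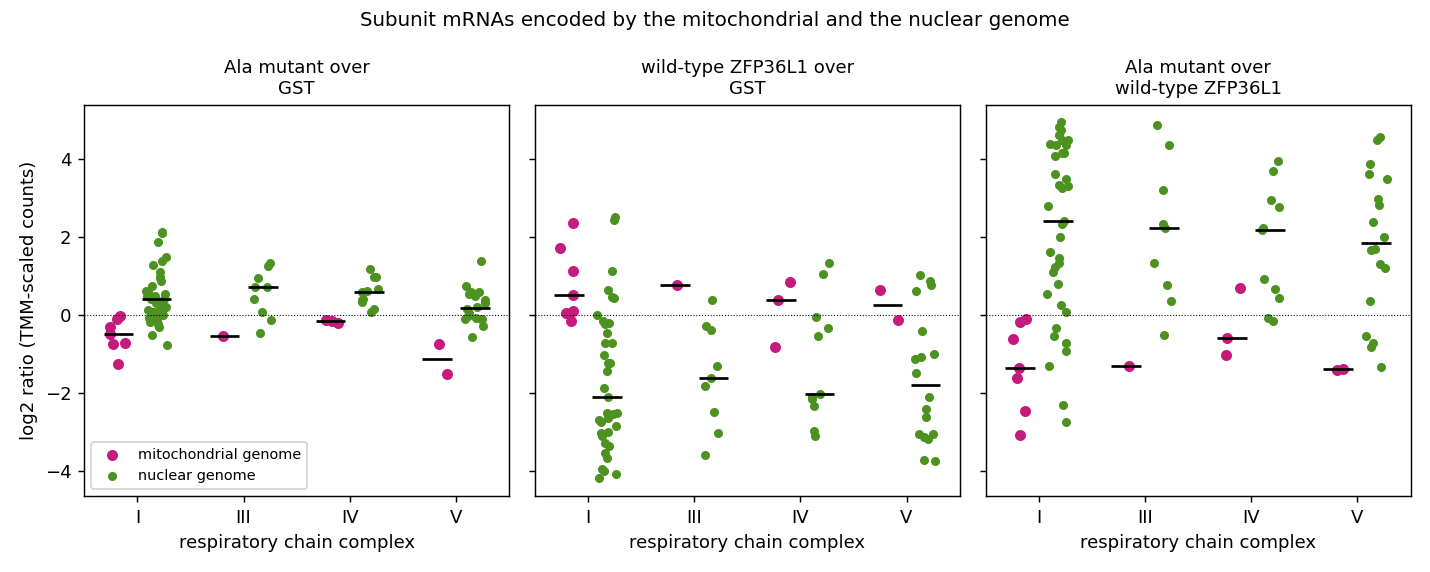
Log2 ratio of TMM-scaled counts for subunit mRNAs encoded by the mitochondrial genome (pink) and the nuclear genome (green), by respiratory complex, in the 3 comparisons; each point is a gene and black lines are medians. In complex I the medians were 0.51 for mitochondrial and -2.10 for nuclear mRNAs in wild-type ZFP36L1 over GST, and -1.36 for mitochondrial and 2.41 for nuclear mRNAs in the Ala mutant over wild-type ZFP36L1.

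Genes that transcribe the mitochondrial genome or handle its RNA fell on both sides. Of 33 measured, 9 (27.3%) were higher and 11 (33.3%) lower with wild-type ZFP36L1 than with GST, with a median of 0.27. These shares are near the 25.5% and 34.2% of all genes. LRPPRC and SLIRP, which together stabilise mitochondrial mRNAs, stood at log2 0.60 and 0.83, both under 2-fold. REXO2, among the higher genes, had 4002 counts with wild-type ZFP36L1 and 1267 with GST (log2 1.58). SSBP1, among the lower ones, had 920 with wild-type ZFP36L1 and 4251 with GST (log2 -2.29). POLRMT, the mitochondrial RNA polymerase, had 45 counts with wild-type ZFP36L1 and 383 with GST (log2 -3.16). HSD17B10, a subunit of the enzyme that cuts tRNA 5′ ends in mitochondria, had 102 with wild-type ZFP36L1 and 1455 with GST (log2 -3.91). For the Ala mutant over GST, 4 (12.1%) were higher and 0 lower, against 9.00% and 5.13% of all genes, and LRPPRC (log2 0.01) and SLIRP (0.12) stood near 0. For the Ala mutant over wild-type ZFP36L1, 11 (33.3%) were higher and 7 (21.2%) were lower, against 36.0% and 30.1% of all genes, with LRPPRC at log2 -0.59 and POLRMT at 4.58.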

How the data were processed

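RNA bound by the Ala mutant, wild-type ZFP36L1 and GST was sequenced as 1 library each. Per the submitters' processing notes, kallisto, DESeq2 and hg19 were used; their versions, the annotation and what DESeq2 served for are not given. Per the file headers, the authors deposited estimated counts and TPM for 196354 transcripts, with length and effective length in bases. Transcripts were joined by identifier to GENCODE 29 (GRCh38, which gives all coordinates), matching 92.6%; the 37 mitochondrial genes had their annotated lengths. Shares are of all estimated counts. For ratios, counts were summed to genes, rounded, kept at a mean of at least 10, scaled by TMM (edgeR 4.0.16) and given a prior count of 0.5. Factors were 0.933 for the Ala mutant, 1.05 for wild-type ZFP36L1 and 1.03 for GST. Intervals split the counts of 2 libraries. The calculation was checked on simulated counts in which few genes differed. In these data many genes differed, so that check does not bear on the scaling here. Nuclear copies were genes named as copies of a mitochondrial gene. Lists were the nuclear subunits by complex, mitochondrial transcription and RNA handling, selected non-coding RNAs and cell type markers. From each, at most the 4 genes with most counts and the 4 farthest from 0 per comparison could be named. Members and lists were chosen with earlier results of these data known. Alternatives were DESeq2 1.42.0 size factors, totals, totals without mitochondrial genes, deposited TPM (pseudocount 0.5, minimum mean 1), no minimum or 100 counts, a prior count of 5, protein-coding genes only and nuclear copies added. Shares and the mRNA to rRNA ratio were also taken from TPM, a choice made after seeing the data.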

Additional observations from a re-analysis of the deposited data

How the results depend on the processing

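With 1 library per protein, leaving out a replicate was not possible, and counting error is the only error known. No paired analysis was possible because each group holds a single library. No mitochondrial gene that was at least 2-fold apart changed direction under any of the settings. With the deposited TPM, 4 mitochondrial mRNAs were lower for the Ala mutant over GST, and 1 mitochondrial rRNA was lower for wild-type ZFP36L1 over GST. There 7 nuclear-encoded respiratory chain genes were higher and 1 RNA handling gene was lower for the Ala mutant over GST, and 13 RNA handling genes were lower for the Ala mutant over wild-type ZFP36L1. Of all genes, 548 were higher and 739 lower for the Ala mutant over GST with the deposited TPM, against 1267 and 723 in the main setting. Lower genes numbered 3907 against 4821 for wild-type ZFP36L1 over GST, and 4295 against 4244 for the Ala mutant over wild-type ZFP36L1. The minimum for keeping a gene differed between these settings. With totals without mitochondrial genes, 10 respiratory chain genes and 12 RNA handling genes were lower for the Ala mutant over wild-type ZFP36L1. Of all genes, 5110 were then lower, against 4244 in the main setting, and the median of all genes shifted by -0.29. With a minimum mean count of 100, 5 of 30 RNA handling genes were higher for wild-type ZFP36L1 over GST. Of all genes kept at that minimum, 2572 were higher, against 3587 in the main setting. Composition by TPM gave 4 mRNAs at least 2-fold lower for wild-type ZFP36L1 over GST, where counts gave 1, and 1 for the Ala mutant over wild-type ZFP36L1, where counts gave 2. As a share of the counts other than mitochondrial rRNA, the mRNAs held 5.75% with the Ala mutant, 14.1% with wild-type ZFP36L1 and 8.24% with GST. As a share of the deposited TPM, chosen after seeing the data, they held 6.11% with the Ala mutant, 24.5% with wild-type ZFP36L1 and 10% with GST, and the mRNAs exceeded the rRNAs 6.80-fold, 39.6-fold and 7.95-fold. For the settings on TPM and totals the cause was not tested. The other counts of called genes, over all lists and settings, stayed within 1.5 times of the reported count.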

Other observations

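Selected non-coding RNAs made outside the mitochondrion were listed beside the mitochondrial rRNAs, which stood at log2 -1.88 (MT-RNR1) and -1.15 (MT-RNR2) for wild-type ZFP36L1 over GST. Of 12 listed, RN7SL1 and RN7SK were not found under these names among the joined genes. The minimum count was passed by 6, and 0 of these were at least 2-fold higher or lower in any of the 3 comparisons. Over all genes, 25.5% were higher and 34.2% lower for wild-type ZFP36L1 over GST. The shares were 9.00% and 5.13% for the Ala mutant over GST, and 36.0% and 30.1% for the Ala mutant over wild-type ZFP36L1. For wild-type ZFP36L1 over GST the log2 ratios of these 6 RNAs ran from -0.50 for NEAT1 to 0.88 for SNHG1. NEAT1 is an architectural RNA of nuclear paraspeckles, and SNHG1 a host of small nucleolar RNAs. MALAT1, a nuclear-retained RNA, had 92 counts with the Ala mutant, 145 with wild-type ZFP36L1 and 120 with GST. GAS5 had 3949 counts with the Ala mutant, 3330 with wild-type ZFP36L1 and 2695 with GST (log2 0.69 for the Ala mutant over GST).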
